A study of Mus musculus with 3 samples.

Results

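CpG methylation was examined at 10 genes of the pluripotency network, *Pou5f1*, *Nanog*, *Sox2*, *Prdm14*, *Dppa3*, *Esrrb*, *Tdgf1*, *Klf4*, *Zfp42* and *Dppa4*, in mouse spermatogonia, the mitotic germ cells of the postnatal testis. The 10 genes were chosen by name for their roles in pluripotent cells, out of 24773 genes with a curated RefSeq transcript in the mouse genome (GRCm38.p6, mm10), and all 10 had calls in every region and library. Spermatogonia were sorted by FACS with an anti-EpCAM antibody from C57BL6/J mice at postnatal day 7, without treatment, and whole-genome bisulfite libraries were made by post-bisulfite adaptor tagging (PBAT). There was 1 deposited library for each of 3 genotypes, WT, Pld6 KO and Dnmt3L KO. The study's methods report more than 1 biological replicate per category. How the deposited libraries relate to those replicates is not given in the sources used here. The mutant lines had been backcrossed to C57BL/6J, no Cre driver or tissue-specific promoter is named for either mutation, and the number of animals pooled per library is not given in the sources used here. The WT category of the study held *Pld6*+/+, *Pld6*+/- and *Dnmt3l*+/- mice, and the labels do not say which of these the WT library came from.

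The methylation level is the number of methylated CpG calls divided by all CpG calls in a region, as a fraction from 0 to 1. A call is 1 read over 1 cytosine of a CpG. For each gene 3 regions were used, the promoter from 2 kb before to 0.5 kb after the start, the 5 kb upstream of the start, and the gene body from start to end. The promoter shares 2 kb with the upstream region and 0.5 kb with the body. With 1 library per genotype no test between genotypes was possible, so differences are given as sizes, with 95% Wilson intervals for levels and 95% Newcombe intervals for differences. Where no call was methylated, the limit given is the level that 3 calls of the total would make, somewhat below the upper Wilson bound. Intervals and limits cover counting error only, and calls on the same read are not independent. A region was counted as decreased where the mutant level fell short of WT by 0.3 or more and each of the 2 libraries compared had 10 calls or more.

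The pluripotency network is a set of transcription factors and their partners that keep embryonic stem cells and early germ cells able to form every lineage. Fetal germ cells erase most DNA methylation and express much of this network. In the male, methylation is laid down again in prospermatogonia, the non-dividing precursors of spermatogonia, by DNMT3 enzymes with the help of DNMT3L, a cofactor without catalytic activity of its own. PLD6 is a mitochondrial surface protein needed to make piRNAs, small RNAs that guide silencing to retrotransposons. *Pou5f1* stays on in undifferentiated spermatogonia, whereas *Nanog* is switched off in the fetal male germ line. RNA was not measured in these libraries.

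Depth differed between the libraries. The WT table summed to 43757722 calls, that of Pld6 KO to 64076569 and that of Dnmt3L KO to 19289688, or 3.01, 3.95 and 1.86 per listed site. The level over all calls was 0.703, 0.722 and 0.301. The targeted genes were checked against the labels first. The Pld6 KO library had no call over 66 consecutive CpG sites at *Pld6* where WT had 163 calls, and the Dnmt3L KO library had none over 53 consecutive sites at *Dnmt3l* where WT had 88. Maternally methylated imprinted genes are free of methylation in male germ cells but methylated on the maternal allele in somatic cells. Within 0.5 kb of their starts, the 9 such genes with 10 or more calls had a median level of 0.020 in the WT library, 0.0699 in the Pld6 KO library and 0 in the Dnmt3L KO library. The highest value was *Airn* in WT at 0.231 (15 of 65 calls). The paternally methylated region 2 to 4 kb upstream of *H19* had levels of 0.859, 0.884 and 0.148.

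Proximal promoter sequences of the genes on which the results turn show how unequally CpG sites are spread. The RefSeq promoter table (GRCm38.p6) held 7 of the 10 genes, and *Prdm14*, *Dppa3* and *Dppa4* had no entry. Each sequence below is the 250 bases before a transcript start, read 5′ to 3′ on the strand of the gene, with every CpG in capitals. *Nanog* (chr6:122707239-122707488, plus strand) and the outer start of *Esrrb* (chr12:86360867-86361116, plus strand) stand for promoters at 0.5 or above in WT as a whole. The printed outer *Esrrb* stretch was itself lower in WT, at 0.36 against 0.719 for the whole promoter. The inner start of *Esrrb* (chr12:86421394-86421643, plus strand) and *Zfp42* (chr8:43307010-43307259, minus strand) are shown as stretches where few calls were methylated. *Pou5f1* (chr17:35505782-35506031, plus strand) is shown as a low start between methylated flanks, and *Klf4* (chr4:55532476-55532725, minus strand) as a dense CpG island.
Nanog: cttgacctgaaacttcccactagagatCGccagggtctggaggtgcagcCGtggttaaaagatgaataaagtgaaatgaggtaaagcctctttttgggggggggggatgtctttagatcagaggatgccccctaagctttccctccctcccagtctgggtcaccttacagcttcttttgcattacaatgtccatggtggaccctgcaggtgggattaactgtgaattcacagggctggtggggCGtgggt
Esrrb outer start: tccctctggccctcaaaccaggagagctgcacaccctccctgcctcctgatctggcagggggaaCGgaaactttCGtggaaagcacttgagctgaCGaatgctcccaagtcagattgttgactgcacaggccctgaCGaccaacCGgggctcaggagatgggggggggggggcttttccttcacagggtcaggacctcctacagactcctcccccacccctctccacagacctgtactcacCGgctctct
Esrrb inner start: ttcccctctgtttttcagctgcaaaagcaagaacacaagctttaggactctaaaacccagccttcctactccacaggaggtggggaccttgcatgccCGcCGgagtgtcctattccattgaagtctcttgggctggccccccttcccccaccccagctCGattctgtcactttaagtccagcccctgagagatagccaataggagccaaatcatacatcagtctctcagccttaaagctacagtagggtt
Zfp42: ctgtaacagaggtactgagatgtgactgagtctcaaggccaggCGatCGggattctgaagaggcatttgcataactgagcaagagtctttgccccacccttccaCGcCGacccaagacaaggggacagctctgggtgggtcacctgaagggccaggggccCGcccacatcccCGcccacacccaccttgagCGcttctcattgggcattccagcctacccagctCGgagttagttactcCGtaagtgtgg
Pou5f1: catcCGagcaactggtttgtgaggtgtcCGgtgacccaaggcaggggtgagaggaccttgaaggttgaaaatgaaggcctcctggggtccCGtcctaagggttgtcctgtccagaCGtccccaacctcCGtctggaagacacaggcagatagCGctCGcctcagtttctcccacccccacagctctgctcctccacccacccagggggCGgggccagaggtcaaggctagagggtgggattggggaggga
Klf4: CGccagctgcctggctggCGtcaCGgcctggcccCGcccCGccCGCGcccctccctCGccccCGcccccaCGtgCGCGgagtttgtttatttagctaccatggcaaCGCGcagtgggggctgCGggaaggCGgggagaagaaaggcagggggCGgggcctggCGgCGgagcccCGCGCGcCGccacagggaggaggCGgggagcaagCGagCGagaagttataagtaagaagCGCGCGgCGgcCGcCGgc
The *Nanog* stretch held 3 CpG sites and the *Klf4* stretch 32. Over the *Nanog* stretch 7 of 8 calls were methylated in WT and 6 of 12 in Pld6 KO, and the Dnmt3L KO library had no call there. Over the *Klf4* stretch 0 of 58, 0 of 37 and 0 of 19 calls were methylated in WT, Pld6 KO and Dnmt3L KO. The *Zfp42* stretch held 9 sites, with 1 of 27, 2 of 56 and 0 of 7 calls methylated, and the *Pou5f1* stretch 8 sites, with 2 of 13, 3 of 37 and 0 of 5. At *Esrrb* the outer start, with 6 sites, had 9 of 25, 14 of 20 and 2 of 4 calls methylated, while the inner start, with 3 sites, had 0 of 8 and 1 of 17 in WT and Pld6 KO and no call in Dnmt3L KO.

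In WT spermatogonia 2 of the 10 promoters were methylated at a level of at least 0.5, those of *Nanog* and *Esrrb*, and 5 were below 0.2, those of *Zfp42*, *Tdgf1*, *Prdm14*, *Sox2* and *Klf4*. *Dppa4*, *Pou5f1* and *Dppa3* lay between. Of the 21793 promoters that had 10 or more calls in every library, 24.6% were at 0.5 or above in WT and 62.4% below 0.2. The Pld6 KO library had the same count of 2 at 0.5 or above and 5 below 0.2. In the Dnmt3L KO library no promoter reached 0.5, 9 of 10 were below 0.2, and *Esrrb* was the exception at 0.276. Shares of all promoters at these limits are given for WT only, so the mutant counts lack that background. The Dnmt3L KO library was low at large, with a median of 0.037 over the 21793 promoters and 0.032 over the 10. For the Pld6 KO library these medians were 0.145 and 0.205.

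**Figure D1:**
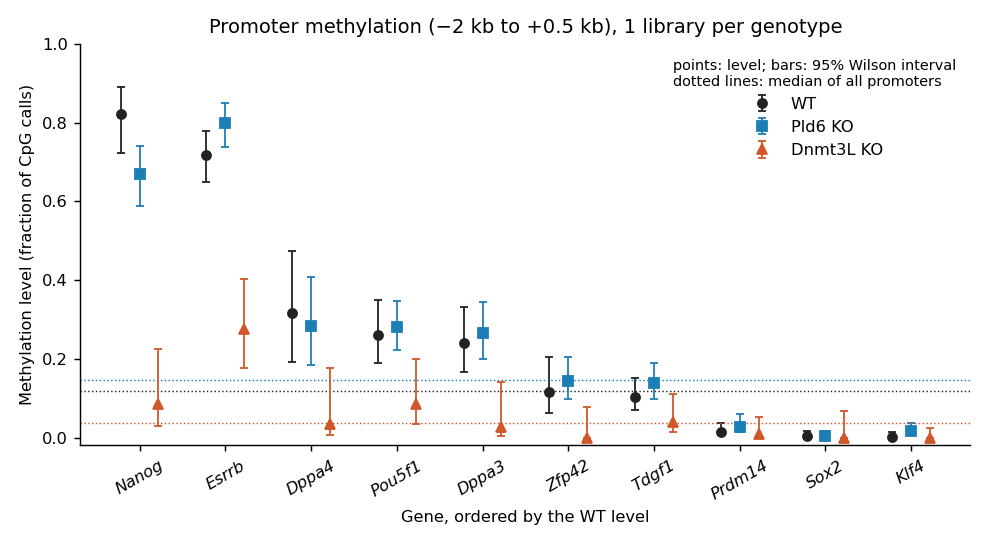
Promoter methylation level (y axis, fraction of CpG calls) of the 10 genes (x axis, ordered by the WT level) in the WT, Pld6 KO and Dnmt3L KO libraries, with 95% Wilson intervals as bars and the median of all promoters in each library as dotted lines. *Nanog* at 0.823 and *Esrrb* at 0.719 stand above the other genes in WT, and all Dnmt3L KO points lie at or below 0.276.

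The Dnmt3L KO library was lower than WT by at least 0.3 at 2 of the 10 promoters, *Nanog* and *Esrrb*, beside a background of 23.9% of the 21803 promoters compared. Only *Nanog*, *Esrrb* and *Dppa4* had a WT level of at least 0.3, so the other 7 could not fall by that much. Such a WT level was found in 30.6% of all promoters, of which 78% were lower by at least 0.3. All 10 genes were lower by some amount, as were 91.3% of all promoters. The median difference of the 10 promoters (WT minus Dnmt3L KO) was 0.146, and that of all promoters was 0.0778. In the Pld6 KO library 0 of 10 promoters were lower by at least 0.3, where the background was 0.484% of 23327 promoters. The median difference of the 10 (WT minus Pld6 KO) was -0.0171, and that of all promoters was -0.0103. None of the 10 was higher in Pld6 KO by at least 0.3, as 0.57% of all promoters were. A two-sided Fisher's exact test between the call counts of a pair of libraries, adjusted over all promoters by Benjamini-Hochberg, passed 5 of the 10 as lower in Dnmt3L KO, beside 41.8% of all promoters. The 5 were, by this exact test, *Nanog* (adjusted p = 4.12e-12), *Esrrb* (7.45e-08), *Dppa3* (0.0142), *Dppa4* (0.0146) and *Pou5f1* (0.0428). In Pld6 KO it passed 0 of the 10 as lower, beside 1.04% of all promoters. Such a test compares 2 libraries and not 2 genotypes.

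*Nanog*, a homeodomain factor of the core network on chr6:122707489-122714633 (plus strand), had the highest promoter level of the 10 in WT. The level was 0.823 in WT (65 of 79 calls, interval 0.724 to 0.891), 0.669 in Pld6 KO (93 of 139, 0.587 to 0.742) and 0.0857 in Dnmt3L KO (3 of 35, 0.0296 to 0.224). The Dnmt3L KO library thus kept 10.4% of the WT level, with a difference of 0.737 (interval 0.567 to 0.826). The median share kept was 11.4% for the 10 promoters and 31.5% for all promoters with any methylated call in WT. Shares of promoters almost free of methylation in WT rest on few methylated calls. The Pld6 KO difference of 0.154 (interval 0.0312 to 0.261) did not pass the same Fisher's exact test (adjusted p = 0.148). Its size depended on the measure, being 0.227 within 0.5 kb of the start, 0.0665 when every site weighed the same, and 0.010 over calls at sites that were read in all 3 libraries. The start used is that of 1 curated transcript, and the others start at chr6:122707565. The promoter window of that second start read 0.823, 0.678 and 0.0789 in WT, Pld6 KO and Dnmt3L KO.

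The methylated start of *Nanog* lay beside a stretch of low methylation further upstream. From 5 to 4 kb before the start, at chr6:122702489-122703488, the level was 0.0227 in WT (1 of 44 calls), 0 in Pld6 KO (0 of 54, which allows a level of up to 0.0556) and 0.0526 in Dnmt3L KO (1 of 19). From 4 to 2 kb before the start it was 0.680, 0.705 and 0.467, and from 1 kb before to 1 kb after the start 0.798, 0.689 and 0.0652. All 3 libraries were thus low at the upstream stretch, and at the start WT and Pld6 KO were high while Dnmt3L KO was low. The extents of this stretch and of those given for other genes were chosen after the levels had been seen. The promoter holds the composite sequence bound by POU5F1 together with SOX2, searched on both strands as CATTGT and ATGCAAA separated by 1 base of any kind. It lies on the minus strand, centred at position -69 from the most 5′ start and within the *Nanog* stretch printed above. Among 24773 promoters of the same length it was found in 1, this one, a share of 0.00404%. The letters were chosen with this site known, so neither the match nor its rarity is a finding. CpG sites within 100 bases of it had 7 of 8 calls methylated in WT, 6 of 15 in Pld6 KO and no call in Dnmt3L KO.

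*Pou5f1* encodes OCT4, the POU factor of the core network (chr17:35506032-35510777, plus strand). Its promoter level was 0.261 in WT (29 of 111 calls, 0.189 to 0.350), 0.280 in Pld6 KO (56 of 200, 0.222 to 0.346) and 0.0851 in Dnmt3L KO (4 of 47, 0.0336 to 0.199). The WT and Pld6 KO intervals overlapped widely. The intermediate value joined a low start to a methylated upstream part. From 2 to 1 kb before the start the level was 0.639, 0.646 and 0.250 in WT, Pld6 KO and Dnmt3L KO, and from 1 kb before to 0.5 kb after it was 0.080, 0.104 and 0.0286. The gene has a second curated start inside its body, at chr17:35508807, whose promoter window read 0.659 (60 of 91 calls), 0.743 (133 of 179) and 0.195 (8 of 41). The intervals of the 2 *Pou5f1* starts lay apart in WT and in Pld6 KO. In Dnmt3L KO they overlapped (0.0336 to 0.199 and 0.102 to 0.340), so a difference there was not shown. An antisense lncRNA gene, *Gm32362* (chr17:35500641-35505737), covers the upstream part.

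*Sox2*, the partner of OCT4 at many enhancers (chr3:34649995-34652461, plus strand), was almost free of methylation. The promoter level was 0.00277 in WT (1 of 361 calls), 0.0029 in Pld6 KO (1 of 345) and 0 in Dnmt3L KO (0 of 53, which allows a level of up to 0.0566). The low stretch ran from 2.5 kb before the start to 4.5 kb after it, past the end of this single-exon gene, and had levels of 0.00458, 0.00776 and 0.0061 over 332 CpG sites. Its upstream border was methylated in WT and Pld6 KO. From 5 to 3 kb before the start the level was 0.727 (24 of 33 calls), 0.868 (79 of 91) and 0.143 (2 of 14). The whole locus lies inside *Sox2ot*, an lncRNA gene read in the same direction.

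*Esrrb*, an orphan nuclear receptor that helps stem cells to renew themselves, spans chr12:86361117-86521628 on the plus strand. Its promoter level was 0.719 in WT (128 of 178 calls, 0.649 to 0.780), 0.80 in Pld6 KO (156 of 195, 0.738 to 0.850) and 0.276 in Dnmt3L KO (16 of 58, 0.178 to 0.402). The Dnmt3L KO library kept 38.4% of the WT level, with a difference of 0.443 (interval 0.299 to 0.559). The promoter was lowest nearest to the start in each library. Within 0.5 kb of the start the levels were 0.549, 0.693 and 0.148, and from 2 to 0.5 kb before it 0.832, 0.915 and 0.387. The second curated start of *Esrrb*, inside the gene at chr12:86421644, was lower. In its window from 2 kb before to 0.5 kb after, the level was 0.359 in WT (37 of 103 calls), with 0.301 (56 of 186) and 0.0976 (4 of 41) in the mutant libraries. Within 0.5 kb of it 0 of 48 calls were methylated in WT, 2 of 106 in Pld6 KO and 0 of 25 in Dnmt3L KO, which allows levels of up to 0.0625 and 0.120 for the counts of 0. The narrow window has an observed to expected CpG ratio of 0.661, against 0.284 around the outer start. The lncRNA gene *Gm40483* overlaps the outer start on the other strand.

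*Klf4*, a zinc finger factor used to reprogram somatic cells, lies at chr4:55527137-55532475 on the minus strand. The promoter level was 0.00249 in WT (1 of 401 calls, 0.00044 to 0.014), 0.0179 in Pld6 KO (7 of 391, 0.0087 to 0.0365) and 0 in Dnmt3L KO (0 of 160, which allows a level of up to 0.0188). From 2 kb before to 2.5 kb after the start the levels were 0.0139, 0.0185 and 0.0129. From 2.5 kb after the start to the gene end they were 0.781, 0.835 and 0.239. The intervals of the 3 libraries overlapped in the low stretch, and beyond it that of Dnmt3L KO (0.139 to 0.379) lay below that of WT (0.666 to 0.865).

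*Prdm14*, a PR domain protein required for germ cell specification, lies at chr1:13113428-13127163 on the minus strand. Its promoter level was 0.0142 in WT (4 of 282 calls), 0.028 in Pld6 KO (6 of 214) and 0.00943 in Dnmt3L KO (1 of 106). From 2 kb before to 2.5 kb after the start the levels were 0.0175, 0.0233 and 0.00535. The remainder of the gene had 0.703, 0.767 and 0.213. The 3 intervals at the promoter overlapped, and in the remainder the Dnmt3L KO interval (0.153 to 0.290) lay below those of WT (0.650 to 0.751) and Pld6 KO (0.721 to 0.808).

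*Zfp42* encodes REX1, a zinc finger protein used as a marker of the naive pluripotent state (chr8:43295067-43307009, minus strand). The promoter level was 0.115 in WT (9 of 78 calls, 0.0619 to 0.205), 0.144 in Pld6 KO (25 of 174, 0.0993 to 0.204) and 0 in Dnmt3L KO (0 of 45, which allows a level of up to 0.0667). The WT value came from the far part of the window. From 1 kb before to 0.5 kb after the start WT had 1 of 70 calls methylated and Pld6 KO 15 of 160, levels of 0.0143 and 0.0938. From 5 to 1.5 kb before the start the levels were 0.837, 0.835 and 0.10.

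*Tdgf1* encodes Cripto, the co-receptor of the signalling protein Nodal (chr9:110939608-110946158, minus strand). Its promoter level was 0.104 in WT (22 of 212 calls, 0.0695 to 0.152), 0.138 in Pld6 KO (30 of 217, 0.0986 to 0.190) and 0.040 in Dnmt3L KO (3 of 75, 0.0137 to 0.111). The stretch from 1.5 kb before to 1 kb after the start had 0.0273, 0.105 and 0, the last of which allows a level of up to 0.038. The remainder of the gene had 0.847, 0.868 and 0.540.

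*Dppa3* encodes Stella, an egg factor that protects the maternal genome from demethylation after fertilisation (chr6:122626424-122630271, plus strand). Its promoter level was 0.240 in WT (24 of 100 calls, 0.167 to 0.332), 0.266 in Pld6 KO (38 of 143, 0.20 to 0.344) and 0.0278 in Dnmt3L KO (1 of 36, 0.00492 to 0.142). The first 3 kb of the gene were low in all 3 libraries, at 0.0543, 0.0891 and 0.0156. From 2 to 0.5 kb before the start the level was 0.760 in WT (19 of 25 calls, 0.566 to 0.885), 0.440 in Pld6 KO (22 of 50, 0.312 to 0.577) and 0.125 in Dnmt3L KO (1 of 8). The WT and Pld6 KO intervals overlapped slightly, and the difference between them has no test.

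*Dppa4*, a nuclear protein that works together with its neighbour *Dppa2*, lies at chr16:48283735-48294292 on the plus strand. The promoter had the fewest calls of the 10, with 0.316 in WT (12 of 38 calls, 0.191 to 0.475), 0.283 in Pld6 KO (17 of 60, 0.185 to 0.408) and 0.0357 in Dnmt3L KO (1 of 28, 0.00633 to 0.177). From 1 kb before to 1 kb after the start the levels were 0.125, 0.111 and 0.0714, too few calls to separate the libraries. The difference between WT and Dnmt3L KO was therefore carried by the upstream part, and it was -0.0103 when the promoter was taken from 1 kb before to 0.1 kb after the start.

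**Figure D2:**
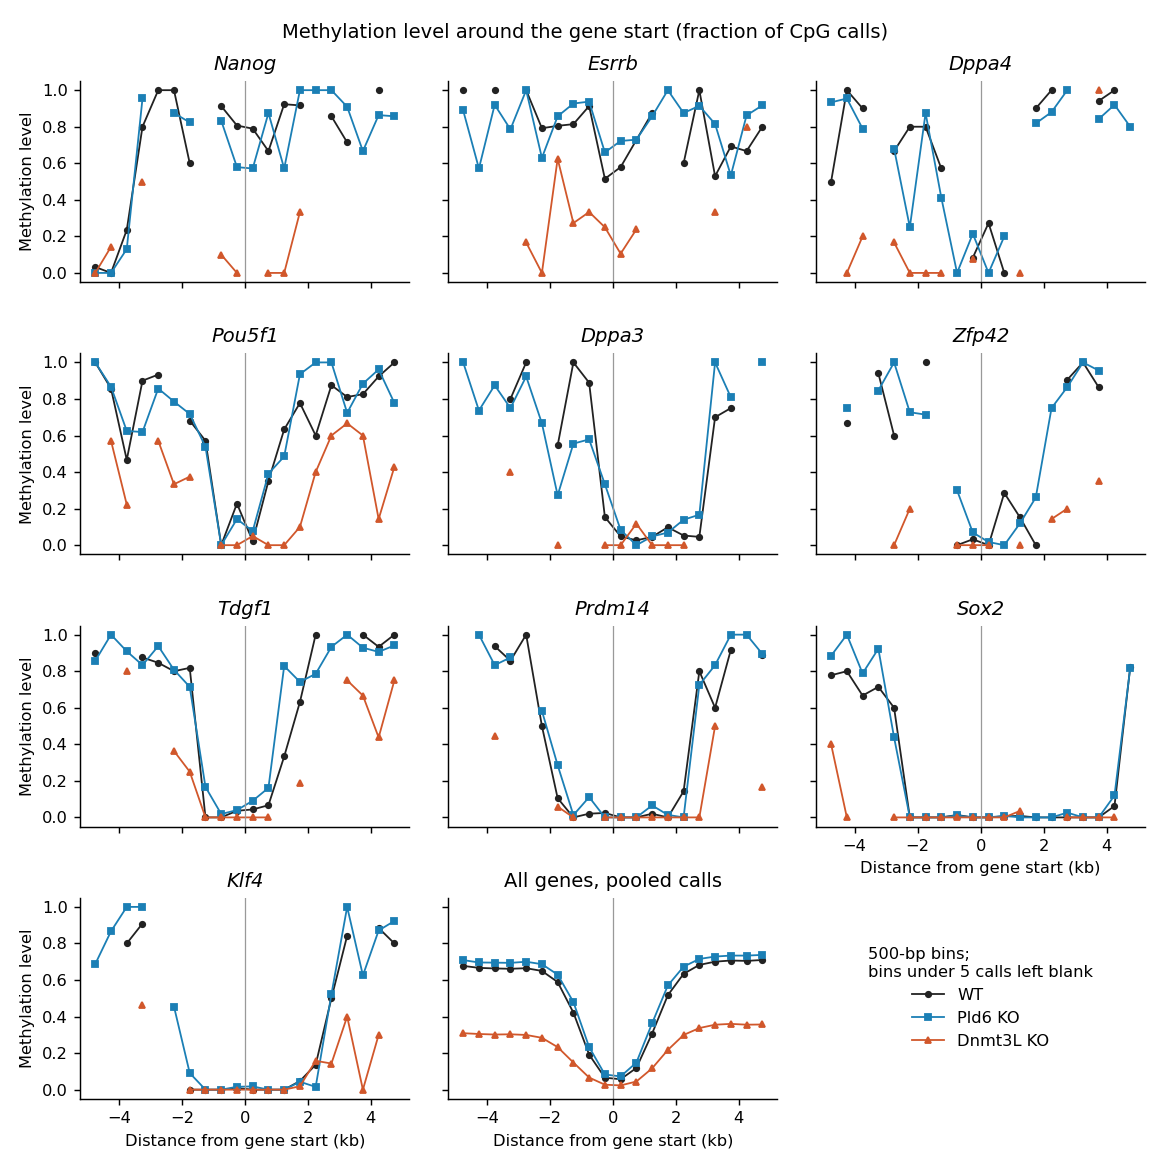
Methylation level (y axis, fraction of CpG calls) in 500-bp bins from 5 kb before to 5 kb after the start (x axis, kb) for each gene and, in the last panel, for calls pooled over all genes, in the 3 libraries. Bins with fewer than 5 calls are blank. *Sox2*, *Klf4*, *Prdm14*, *Tdgf1* and *Dppa3* show a flat unmethylated floor, *Nanog* and *Esrrb* show none at the start, and the Dnmt3L KO line lies below the others mainly on the methylated flanks.

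In WT 8 of the 10 starts, all but *Nanog* and *Esrrb*, sat in or next to a run of 500-bp bins below 0.2, from 500 bp long at *Pou5f1* and *Dppa4* to 7000 bp at *Sox2*. Outside these runs but within 5 kb of the start, the WT level ranged from 0.503 at *Zfp42* to 0.857 at *Prdm14*. The same outside bins read from 0.599 at *Zfp42* to 0.863 at *Klf4* in Pld6 KO and from 0.0769 at *Sox2* to 0.456 at *Tdgf1* in Dnmt3L KO. The runs were set on the WT levels, so the low WT values inside them are no finding. The count of 8 has no background, because the rule was not run on all genes. In WT the calls pooled over all genes were also low in the bins on each side of the start. They had 0.0656 in the 500 bp before it and 0.0568 in the 500 bp after it. In the other libraries, inside the runs, the levels were 0.00776 to 0.214 in Pld6 KO and 0 to 0.0769 in Dnmt3L KO.

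The Pld6 KO library was slightly higher than WT inside the low runs of all 8 genes, by the most at *Dppa4* (0.0833 and 0.214 over 12 and 14 calls), *Zfp42* (0.0143 and 0.0938 over 70 and 160 calls) and *Tdgf1* (0.0273 and 0.105 over 220 and 295 calls). It was also higher over all genes. Their pooled calls in the first 500 bp after the start had 0.0568 in WT and 0.0723 in Pld6 KO. Only 38.8% of 23327 promoters were lower in Pld6 KO by any amount. The low runs were chosen to be low in WT, a choice that tends to lower their WT level. Its part in the difference was not tested. Of the 9 maternally methylated imprinted genes with 10 or more calls in both libraries, 5 were higher and 4 lower in Pld6 KO than in WT. Their pooled level was 0.0427 over 1569 calls in WT, 0.0711 over 2054 in Pld6 KO and 0.0101 over 596 in Dnmt3L KO, with the 1 gene of few calls included. The part of other cells in these low levels was not tested. The spermatogonia were sorted with 1 surface marker, and DNA from other cells cannot be told apart from methylation in a share of the spermatogonia.

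In WT 5 of the 10 upstream regions were at 0.5 or above, beside 48% of the 23180 upstream regions with 10 or more calls in every library. In Dnmt3L KO 6 of 10 were lower than WT by at least 0.3, beside 45.3% of 23187 upstream regions (7 of the 10 and 73.1% of all had a WT level of at least 0.3), and in Pld6 KO 0 of 10, beside 0.6% of 24019. The 6 were *Dppa4* (0.659, 0.654 and 0.0667 for WT, Pld6 KO and Dnmt3L KO), *Esrrb* (0.803, 0.817 and 0.310), *Nanog* (0.552, 0.545 and 0.152), *Dppa3* (0.693, 0.582 and 0.324), *Zfp42* (0.416, 0.466 and 0.0465) and *Pou5f1* (0.630, 0.529 and 0.295). *Dppa4* kept 10.1% of its WT level and *Zfp42* 11.2%, whereas *Dppa3* kept 46.7%. The median share kept was 42.7% for the 10 genes and 40.4% for all genes. Taking only the part from 5 to 2 kb upstream, which no promoter holds, 9 of 10 were lower by at least 0.3, beside 73.3% of 20031 such regions, and *Nanog* was the exception (0.372 and 0.235).

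The upstream regions of *Klf4* and *Sox2* appeared higher in Pld6 KO than in WT, at 0.336 against 0.0644 and at 0.231 against 0.078. At *Klf4* the bin from -3.5 to -3 kb, methylated in both libraries, had 11 calls in WT and 78 in Pld6 KO. Over CpG sites with calls in both libraries, each site weighing the same, the mean levels were 0.0984 in WT and 0.138 in Pld6 KO at *Klf4* (94 sites), and 0.140 and 0.143 at *Sox2* (92 sites).

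**Figure D3:**
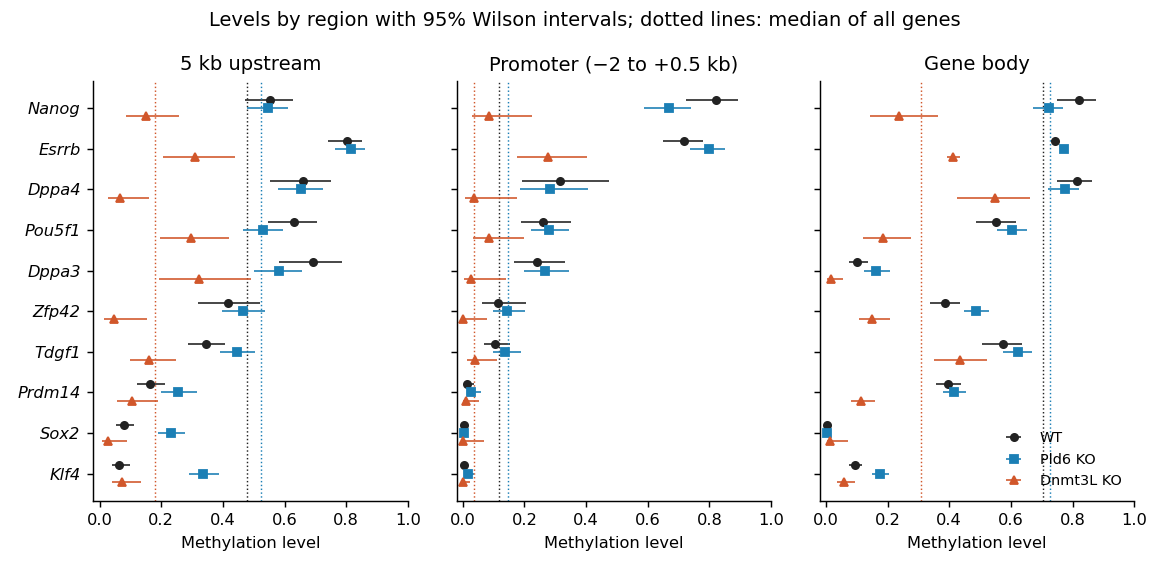
Methylation level (x axis, fraction of CpG calls) of the upstream region, promoter and gene body of the 10 genes in the 3 libraries, with 95% Wilson intervals as bars and the median of all genes as dotted lines. The Dnmt3L KO points lie left of WT in most rows, and the Pld6 KO points of *Klf4* and *Sox2* lie right of WT in the upstream panel.

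Gene bodies covered a wide range of levels. In WT the highest were *Nanog* at 0.820, *Dppa4* at 0.813 and *Esrrb* at 0.743, and the lowest were *Sox2* at 0.00479, *Klf4* at 0.0931 and *Dppa3* at 0.101. The other 4 lay between, *Tdgf1* at 0.573, *Pou5f1* at 0.552, *Prdm14* at 0.397 and *Zfp42* at 0.385. The median of all genes was 0.703. In Dnmt3L KO 3 bodies were lower by at least 0.3, those of *Nanog* (0.236), *Pou5f1* (0.552 in WT and 0.186) and *Esrrb* (0.413), beside 56.8% of 22720 bodies. The WT level was at least 0.3, and so could fall by that much, in 7 of the 10 bodies and 86.9% of all. In Pld6 KO 0 bodies were lower by at least 0.3, beside 0.226% of 23489. The *Dppa4* body kept 67.2% of the WT level in Dnmt3L KO (0.547, 35 of 64 calls) while the region upstream of it kept 10.1%. *Tdgf1* kept 76.0% (0.573 and 0.435). The median share kept was 48.1% over all bodies and 47.3% over the 10, of which *Dppa3* kept the least at 15.1%.

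Within some bodies the levels of exons and introns stood apart. At *Zfp42* the exons had 0.114, 0.161 and 0.0135 (WT, Pld6 KO, Dnmt3L KO), and introns had 0.546, 0.637 and 0.239. At *Esrrb* exons had 0.459, 0.520 and 0.165, and introns 0.766, 0.792 and 0.438. The *Prdm14* values were close, with 0.381 in exons and 0.406 in introns in WT. The 160512 bp of *Esrrb* were not uniform either. In windows of 10 kb from its outer start, WT ranged from 0.352 at 60 to 70 kb, the window with the inner start, to 0.922 at 90 to 100 kb, and Dnmt3L KO from 0.205 at 70 to 80 kb to 0.731 at 130 to 140 kb.

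Promoter methylation in WT went with the CpG content of the promoter, a feature that did not enter the choice of genes. The measure used is the observed number of CpG sites over that expected from the C and G content. It was highest at *Klf4* (0.836) and *Sox2* (0.711), followed by *Prdm14* (0.480) and *Tdgf1* (0.443), and the other 6 genes lay between 0.240 at *Pou5f1* and 0.381 at *Zfp42*. The median WT level of all promoters was 0.304 in the class from 0.2 to 0.4 and 0.0334 in the class of 0.6 and over. Of the class from 0.2 to 0.4, 35.3% had a WT level of at least 0.5. *Nanog* was higher than 79.6% and *Esrrb* higher than 73.6% of the other promoters of that class in WT, *Zfp42* higher than 18.6%. In Dnmt3L KO *Nanog* was higher than 49.0% and *Esrrb* than 80.5%, so *Nanog* sat near the middle of its class there and *Esrrb* did not. *Pou5f1* and *Nanog* had nearly the same ratio, 0.240 and 0.246, and WT levels of 0.261 and 0.823.

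**Figure D4:**
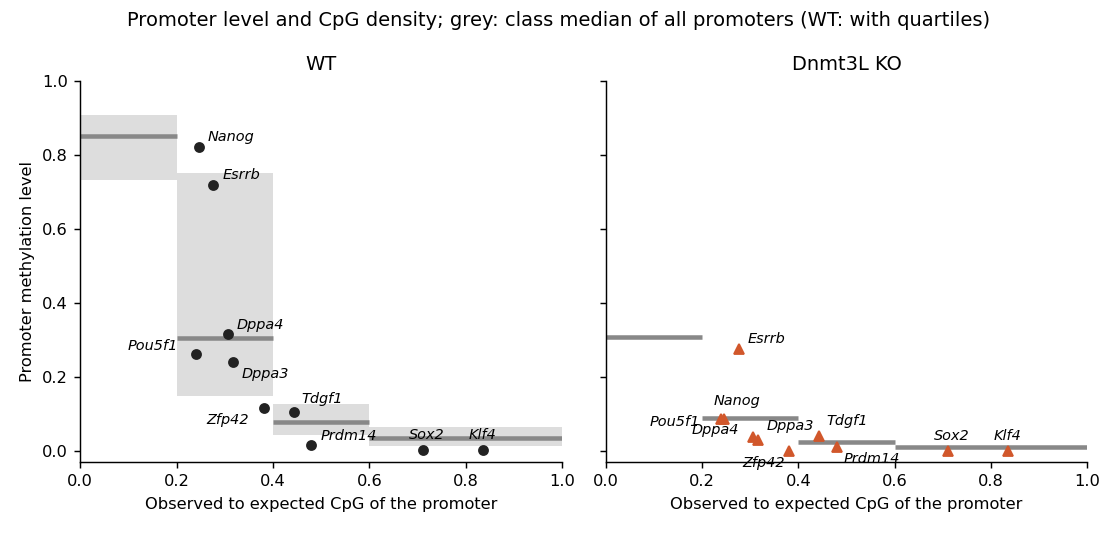
Promoter methylation level (y axis) against the observed to expected CpG ratio of the promoter (x axis) for the 10 genes in WT and in Dnmt3L KO. Grey lines are the medians of all promoters in 4 classes of the ratio, the last of which is drawn up to 1, and the shaded boxes are the WT quartiles. *Nanog* (0.823) and *Pou5f1* (0.261) differ in WT at nearly the same ratio, and in Dnmt3L KO they lie together at 0.0857 and 0.0851.

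The octamer ATGCAAAT, a sequence bound by OCT4 and other POU factors, was searched on both strands in the promoters. It was found in 3 of the 10, *Dppa3*, *Zfp42* and *Tdgf1*, and in 12.4% of all 24773 promoters. The composite sequence above ends in ATGCAAA and needs no octamer. Within 100 bases of the *Zfp42* match, centred at position -182, 1 of 18 calls was methylated in WT, 0 of 34 in Pld6 KO and 0 of 5 in Dnmt3L KO. Near the *Tdgf1* match, centred at position -1837, the counts were 6 of 7, 9 of 14 and 1 of 6. A match is a description of the letters and says nothing of binding.

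*Dppa3* and *Nanog* are neighbours on chromosome 6, with *Gdf3*, which encodes a relative of Nodal, between *Apobec1* and *Dppa3*. In windows of 5 kb the WT level was lowest at *Dppa3*, at 0.188 (80 to 75 kb before the *Nanog* start), and was 0.835 over the first 5 kb of *Nanog*. The same windows had 0.305 and 0.758 in Pld6 KO and 0.033 and 0.132 in Dnmt3L KO. All 28 windows were lower in Dnmt3L KO than in WT, as were 97.5% of upstream regions and 98.3% of bodies over all genes. Dnmt3L KO levels were highest at 20 to 25 kb and 25 to 30 kb after the *Nanog* start, at 0.611 and 0.681, where the gene *Slc2a3* ends.

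**Figure D5:**
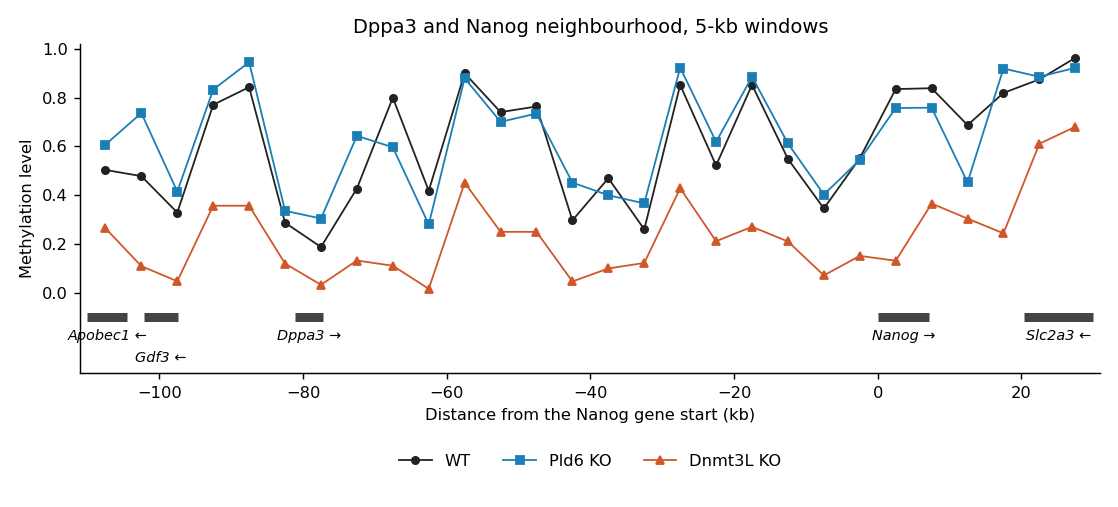
Methylation level (y axis, fraction of CpG calls) in 5-kb windows along the *Dppa3* and *Nanog* neighbourhood (x axis, distance from the *Nanog* start in kb) in the 3 libraries, with genes as bars and arrows for their strand. The Dnmt3L KO line stays below WT throughout, from 0.0164 to 0.681, and the WT line dips to 0.188 at *Dppa3* and stands at 0.835 over the start of *Nanog*.

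Among 40 other genes of the network and its signalling partners, 6 promoters were lower than WT by at least 0.3 in Dnmt3L KO and 0 in Pld6 KO. The background for these calls is that given above for promoters, 23.9% and 0.484%. The 6 were *Fbxo15* (0.818 in WT and 0.176 in Dnmt3L KO), the Nodal antagonists *Lefty1* (0.852 and 0.311) and *Lefty2* (0.863 and 0.390), *Dppa2*, the partner of *Dppa4* (0.615 and 0.179), the nuclear receptor gene *Nr5a2* (0.814 and 0.455) and *Dppa5a* (0.350 and 0.0167). In Pld6 KO their levels were 0.739, 0.947, 0.866, 0.639, 0.787 and 0.415. The highest level in Dnmt3L KO was that of *Nanos3*, which keeps early germ cells alive, at 0.60 over 15 calls (0.861 in WT), followed by *Nr5a2* over 11 calls and *Lefty2* over 41. The median WT level of the 40 promoters was 0.0966, and 29 were below 0.2. Of 18 spermatogonial genes, 1 was lower by at least 0.3 in Dnmt3L KO, the stem cell regulator *Nanos2* (0.762 in WT, 0.706 in Pld6 KO and 0.212), and 16 were below 0.2 in WT.

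By promoter level over the 3 libraries, the nearest of the 40 genes to *Nanog* and to *Esrrb* was *Fbxo15*, at Euclidean distances of 0.115 and 0.153. *Tcl1* was nearest to *Pou5f1* (0.109), *Dppa3* (0.0769) and *Dppa4* (0.0999), and *Tet1* to *Tdgf1* (0.0286) and *Zfp42* (0.0282). *Lifr* was nearest to *Klf4* (0.0151) and *Trim28* to *Prdm14* (0.00619). These distances rest on 3 values per gene and are a description.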

How the data were processed

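Spermatogonial DNA of 3 genotypes was sequenced as single-end reads of 100 bp from PBAT libraries. Per the study's methods, reads lost 6 bases at the start, 15 at the end and any poor-quality part, and the authors then took calls from uniquely aligned reads with Bismark (mm10, default settings). The Bismark version and the removal of duplicates are not given in the sources used here. The deposited tables give, per cytosine of a CpG, a methylated fraction and the counts of methylated and unmethylated calls, and the counts were used. The deposited fraction equalled their ratio within 1e-06 at every site. Calls were pooled over regions set from the RefSeq annotation of GRCm38.p6, with the gene start at the most 5′ start of the curated (NM or NR) transcripts. Totals were 19289688 to 64076569 calls, so regions with fewer than 10 calls gave no call of a difference.

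With 1 library per genotype, sizes are given, and Fisher's exact test between the call counts of a pair of libraries (two-sided, Benjamini-Hochberg adjusted over all promoters) was an alternative. The other alternatives changed the promoter window, sites, call minimum and size of decrease. The start of the whole gene feature was also taken, but was the same position for all 10 genes. The interval and the call rule were tested on simulated data. The simulated calls were drawn independently, so the dependence between calls on the same read was not covered. All 10 genes are named, and of the 40 other genes those called, the 3 highest in Dnmt3L KO and the nearest to each of the 10, of which that for *Sox2* is not reported here. The genes, lists and sequences searched were chosen with earlier results of these data known. Python 3.11.15, NumPy 2.4.6, pandas 2.3.3, SciPy 1.17.1 and matplotlib 3.10.9 were used.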

Additional observations from a re-analysis of the deposited data

How the results depend on the processing

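The *Nanog* and *Esrrb* promoters were lower in Dnmt3L KO than in WT by at least 0.3 under every alternative run on the promoters, with differences of 0.678 to 0.770 and 0.396 to 0.516. The alternative gene start was the same position for all 10 genes, so it could change nothing. The inner start of *Esrrb* was not among the alternatives. Its promoter window had 0.359 in WT and 0.0976 in Dnmt3L KO, less than 0.3 apart. The count of 2 of 10 promoters lower in Dnmt3L KO by at least 0.3 became 4 with a decrease of at least 0.2 (30.6% of all promoters). It became 5 by Fisher's exact test (adjusted p under 0.05, where 41.8% of all promoters passed in that direction), and was 2 or 3 otherwise. For Pld6 KO the count was 0 under each alternative, Fisher's exact test included. The 3 gene bodies lower in Dnmt3L KO became 5 when the first 0.5 kb was left out, where 69.9% of all bodies passed. The 6 other pluripotency genes became 10 with a decrease of at least 0.2 and 3 with the promoter within 0.5 kb of the start (13.6% of all promoters). The numbers of promoters at 0.5 or above did not change under the alternatives. Among differences of single promoters 9 of 140 moved beyond the 95% interval of the main value and 131 did not. The 131 include those from the start of the whole gene feature and from leaving out sites with more than 20 calls. Both gave the main value at each of the 10 promoters, so these could not move. Those of *Dppa4* ranged from -0.0103 to 0.503 for Dnmt3L KO, a promoter with 28 to 60 calls, and that of *Zfp42* fell to 0.00926 over sites shared with WT. The mean over sites shared by 2 libraries was chosen after the data had been seen. No paired analysis was possible because each genotype had 1 deposited library and the labels give no replicate numbers that groups share. For the same reason no replicate could be left out. The Dnmt3L KO library, with 1.86 calls per site, limits the precision of every comparison made with it.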
